A study of Mus musculus with 78 samples.

Results

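The 10 genes examined here encode CTCF and the cohesin machinery of mouse cells: Ctcf, Rad21, Smc1a, Smc3, Stag1, Stag2, Nipbl, Wapl, Pds5a and Pds5b. They were picked by name, from the composition of the machinery and not from any measured value, and all 10 were found among the 55401 genes of each of the 3 gene count tables. The question was whether removal of the transcription factor ZFP143 altered the expression of the genes that build and regulate chromatin loops. The cells were E14TG2a mouse embryonic stem cells that carry ZFP143-FKBP on both alleles, a fusion of ZFP143 with a degradation tag, and were kept in 2i and LIF. Lines were grown from single sorted cells, and which clone gave which library is not given in the sources used here. The tag recruits the degrader dTAG-V1, given at 500 nM, so the protein is removed while its gene stays intact. Every group, the DMSO controls included, carried the tagged gene.

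The libraries of the 3 tables numbered 24 of the 78 samples of the series, in 4 groups of 2 libraries per table. TT-seq, which counts RNA made during a 10 min pulse of 4-thiouridine, compared DMSO with dTAG-V1 for 2, 6 and 24 h. RNA-seq, which counts steady-state RNA, compared DMSO with dTAG-V1 for 24, 48 and 72 h. In each of these 2 experiments all times were set against the same 2 DMSO libraries, whose sample labels give no time. The times are thus not independent repeats, and time in culture and time of depletion cannot be told apart. A second RNA-seq experiment compared DMSO and dTAG-V1 for 24 h with the same cells after a further 24 h in differentiation medium with retinoic acid (RA), DMSO or dTAG-V1 being kept throughout. No group received the differentiation medium without RA, so the change called the RA effect here holds the change of medium as well, and in depleted cells a further 24 h of depletion (48 h in all), which cannot be told apart. The totals ranged from 9721568 to 16532077 counts per TT-seq library, from 10261851 to 15316700 per RNA-seq library of the time course and from 13890761 to 27089033 per library of the RA experiment. The lowest count of the 10 genes in any library was 708 in TT-seq, 1082 in the time course and 1546 in the RA experiment. The spread between libraries that edgeR fitted in common to all genes, as a coefficient of variation beyond counting error, was 17.2%, 3.65% and 5.92%. The study describes TT-seq and RNA-seq as done in 2 biological replicates, without saying what set the replicates apart. With 2 libraries per group, p-values measure the spread between such libraries, fitted over the 4 groups of a table. In such bulk samples, fewer cells of a type and less RNA per cell cannot be told apart.

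Cohesin is a ring that holds DNA loops and sister chromatids. SMC1A and SMC3 form its long arms, RAD21 closes the ring, and STAG1 or STAG2 binds RAD21 and gives alternative versions of the complex. NIPBL loads cohesin and drives loop extrusion, WAPL releases it from DNA, PDS5A and PDS5B bind the ring and take part in both release and pausing, and CTCF is the zinc finger protein at which extrusion stops. The ring subunits are essential in dividing cells. ZFP143 is a zinc finger activator that binds near the starts of many housekeeping genes through a motif known as SBS, of which ACTACAA and CCCAGNATG are parts.

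ZFP143 peaks lay at the promoters of 3 of the 10 genes: Ctcf, Wapl and Smc1a. A gene was counted where a peak of the deposited list of 3189 reached into a window that began 2000 bp before any transcript start and ended 1000 bp after it, with the centre within 2000 bp of that start (mm10). Of the protein-coding genes that passed the count filter, such a peak was found for 15.6% in TT-seq, 16.3% in the time course of RNA-seq and 15.3% in the RA experiment. The Ctcf peak (chr8:105636096-105636618) was enriched 78.8-fold over input with a -log10 q-value of 271, had its summit 159 bp upstream of the gene's first start at 105636568 and covered that start. The Wapl peak (chr14:34673482-34674075) was enriched 71.2-fold with a -log10 q-value of 222 and had its summit 149 bp upstream of the start at 34673928. The Smc1a peak (chrX:152016358-152016610) was weaker, at 15.5-fold and a -log10 q-value of 27.5, with its summit 40 bp inside the gene. Of all ZFP143 peaks, 7.68% were more enriched than the Ctcf peak and 10.7% more than the Wapl peak, whereas 58.0% were more enriched than the Smc1a peak, and the median peak was enriched 20.8-fold. In the annotation used, Ctcf (ENSMUSG00000005698) spans chr8:105636568-105682922, Wapl (ENSMUSG00000041408) chr14:34673928-34747983 and Smc1a (ENSMUSG00000041133) chrX:152016428-152062694, all on the plus strand, and each of the 3 peaks covers the first base of its gene. The list is a single one without replicates, so these heights have no error.

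The 250 bases upstream of the RefSeq starts of these 3 genes (GRCm38.p6, plus strand, 5′ to 3′, from the RefSeq promoter table) are printed because they lie under or beside the ZFP143 peaks. Capitals mark exact matches to ACTACAA or CCCAGNATG on either strand.
Ctcf, chr8:105636288-105636537: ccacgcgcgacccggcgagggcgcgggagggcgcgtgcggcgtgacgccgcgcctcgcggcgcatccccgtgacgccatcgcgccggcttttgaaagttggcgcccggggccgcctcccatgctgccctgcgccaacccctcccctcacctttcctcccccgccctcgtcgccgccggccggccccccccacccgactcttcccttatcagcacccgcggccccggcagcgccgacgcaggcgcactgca
Wapl, chr14:34673678-34673927: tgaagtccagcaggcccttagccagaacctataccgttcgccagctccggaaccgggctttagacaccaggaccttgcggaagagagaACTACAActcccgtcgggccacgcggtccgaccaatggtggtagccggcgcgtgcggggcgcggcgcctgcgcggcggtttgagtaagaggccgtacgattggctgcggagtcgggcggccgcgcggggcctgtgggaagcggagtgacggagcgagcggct
Smc1a, chrX:152016178-152016427: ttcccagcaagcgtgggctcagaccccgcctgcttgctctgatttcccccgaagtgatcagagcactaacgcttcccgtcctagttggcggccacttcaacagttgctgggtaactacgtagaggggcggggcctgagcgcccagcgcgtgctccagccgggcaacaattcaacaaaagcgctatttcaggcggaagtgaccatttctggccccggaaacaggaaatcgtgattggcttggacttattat
Wapl alone held a match, one ACTACAA on the plus strand, centred 159 bases upstream of the start and 10 bases upstream of the peak summit. Neither sequence part was found in the Ctcf or Smc1a window, nor in their peaks. Of all 32851 windows in the RefSeq table, 3.24% held ACTACAA and 2.04% held CCCAGNATG, and of the 3189 ZFP143 peaks 20% and 16.1% did. The 2 parts were searched separately, no match in these windows overlapped another, and a match describes the letters and not binding. Of the 10 genes, 7 had an entry in this table.

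The other 7 genes had no ZFP143 peak at a promoter. Pds5b came closest, with a peak enriched 136-fold centred 8.1 kb upstream of its start, at the start of the neighbouring gene N4bp2l2. For the remaining genes the nearest ZFP143 peak lay 106.9 kb (Stag1), 113.8 kb (Rad21), 181.9 kb (Smc3), 209.9 kb (Pds5a), 696.1 kb (Nipbl) and 3572.9 kb (Stag2) away. CTCF peaks, from a list of 22314 that pools DMSO and depleted cells, lay at the promoters of 6 of the 10 genes, namely Ctcf itself, Smc3, Stag1, Stag2, Pds5a and Pds5b, against 22.6%, 22.9% and 22.4% of the protein-coding genes tested in the 3 tables. Ctcf was the only one of the 10 with peaks of both factors, which overlapped by 43 bp.

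**Figure D1:**
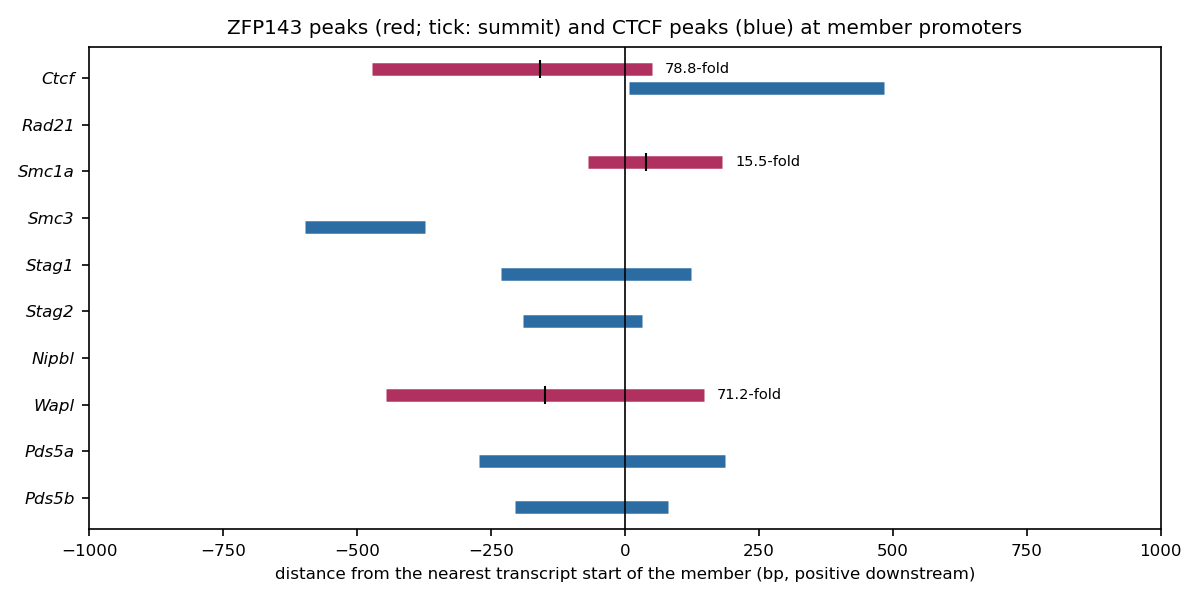
Positions of ZFP143 peaks (red, with the summit as a tick and the fold enrichment over input) and CTCF peaks (blue) against distance from a transcript start in bp, one row per gene; both Ctcf peaks are drawn from the start at which the ZFP143 peak was counted. ZFP143 peaks cover the starts of Ctcf, Smc1a and Wapl, and CTCF peaks lie at 6 of the 10 promoters.

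In undepleted cells the 10 genes differed widely in level. Per kilobase of gene, newly made RNA in the DMSO libraries of TT-seq was highest for Rad21 at 7.43 ± 0.20 CPM per kb (mean ± SD, n = 2), followed by Ctcf (6.49 ± 1.1), Smc3 (4.37 ± 0.34), Pds5a (3.51 ± 0.41), Wapl (2.99 ± 0.51), Smc1a (1.99 ± 0.38), Nipbl (1.50 ± 0.19), Stag1 (1.31 ± 0.29), Pds5b (1.04 ± 0.17) and Stag2 (0.65 ± 0.11). CPM are counts scaled to the size of the library after TMM normalization. In this order Rad21 and Ctcf, Pds5a and Wapl, Smc1a and Nipbl, Nipbl and Stag1, and Stag1 and Pds5b differed by less than the sum of their SDs. Steady-state RNA per kilobase of merged exons, in the DMSO libraries of the RNA-seq time course, put Rad21 first at 123 ± 5.3 CPM per kb, then Wapl (60.2 ± 2.1), Ctcf (58.8 ± 4.2), Smc3 (54.1 ± 2.3) and Smc1a (50.9 ± 2.4), with Pds5a (19.3 ± 0.22), Nipbl (16.7 ± 1.6), Stag1 (15.4 ± 1.3), Stag2 (13.8 ± 0.058) and Pds5b (10.6 ± 0.68) well below. Here Wapl and Ctcf, Ctcf and Smc3, Smc3 and Smc1a, and Nipbl and Stag1 differed by less than the sum of their SDs. Differences between genes were not tested. Rad21, whose product closes the ring, had the highest mean on both scales. The order in RNA-seq depends on the annotated exons merged over all transcripts, 19.34 kb for Pds5a and 6.62 kb for Wapl. Before division by length Pds5a was at 372 CPM, between Wapl at 399 and Ctcf at 286.

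As a check of the treatment, the transcript of Zfp143 itself was called higher in every depleted group, with a log2 change of 1.17, 1.15 and 1.18 in TT-seq, 1.09, 1.11 and 1.30 over the time course of RNA-seq, and 1.36 before and 1.38 after RA. Since dTAG-V1 removes the protein, the transcript does not show the depletion. The 7 pluripotency genes used to check the cell type (Pou5f1, Nanog, Sox2, Esrrb, Klf4, Zfp42 and Tfcp2l1) summed to between 3391 and 3658 CPM in the DMSO libraries of TT-seq and to between 5368 and 5484 in those of the time course, with none at 0.

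Nascent transcription of the 10 genes was not called changed at any time in the main fit (edgeR, all libraries, the count filter and no replicate block). At 6 h Stag1 stayed uncalled in 5 of 9 alternatives and Pds5b in 8 of 9. A TT-seq change was called at an adjusted p under 0.05 (edgeR quasi-likelihood, over all 17870 genes tested) with an absolute log2 change above 0.5. None of the 10 was called at 2, 6 or 24 h, where 2.53%, 3.31% and 6.26% of all genes were (2.37%, 2.92% and 4.25% lower, and 0.168%, 0.386% and 2.01% higher). Without the limit on size it was still none of the 10, against 2.53%, 3.32% and 6.39%. The 95% interval lay wholly inside a 1.5-fold change for 4, 4 and 7 of the 10, against 30.7%, 26.0% and 25.9% of all genes. At an unadjusted p under 0.05 the numbers were 4, 5 and 0, against 11.4%, 17.6% and 21.8% of all genes. DESeq2 called 0, 1 (Stag1) and 0, against 3.02%, 4.28% and 7.12%.

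None of the 3 genes with ZFP143 at the promoter was called lower in nascent RNA, with or without the replicate number as a block. Ctcf gave 266 and 335 CPM in the DMSO libraries, 259 and 296 at 2 h, 278 and 309 at 6 h, then 218 and 291 at 24 h. The Ctcf libraries overlapped between DMSO and each time point. Taken by library number, Ctcf was lower than DMSO in both libraries at 2 and at 24 h. The log2 change of Ctcf was -0.11 at 2 h (95% interval -0.51 to 0.28), -0.04 at 6 h (-0.43 to 0.36) and -0.24 at 24 h (-0.64 to 0.16). Smc1a gave 79.9 and 104 CPM in DMSO, 72.5 and 84.0 at 2 h, 79.8 and 84.3 at 6 h, then 80.2 and 70.1 at 24 h. All 6 depleted libraries of Smc1a lay below the higher DMSO library, and 3 of them lay below the lower one. Taken by number, Smc1a was lower in both libraries at 2 h, and at 6 h and 24 h clearly lower in the second library alone. Its log2 change was -0.24 (-0.59 to 0.12), -0.17 (-0.53 to 0.19) and -0.30 (-0.66 to 0.06). Wapl, which encodes the release factor, was at 0.18 (-0.13 to 0.49), 0.28 (-0.03 to 0.59) and 0.05 (-0.26 to 0.36). The lowest bound of these intervals was -0.66, for Smc1a at 24 h. Among all 2127 tested protein-coding genes with a ZFP143 promoter peak, 17.1%, 18.9% and 23.5% were called lower at 2, 6 and 24 h, and their median log2 change was -0.28, -0.30 and -0.31.

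Several of the genes without a ZFP143 peak had more nascent RNA at 2 and 6 h, short of the threshold. Stag1, one of the alternative ring subunits, gave 401 and 548 CPM in DMSO, 693 and 600 at 2 h, 706 and 725 at 6 h, then 558 and 559 at 24 h. Each of its depleted libraries was above both DMSO libraries, and the depleted libraries were highest at 6 h. The log2 change of Stag1 was 0.45 at 2 h (adjusted p = 0.321), 0.59 at 6 h (0.23 to 0.96, adjusted p = 0.0989) and 0.24 at 24 h (adjusted p = 0.441). Pds5a reached 0.49 at 6 h (adjusted p = 0.0948), Pds5b 0.50 (adjusted p = 0.122), Nipbl 0.41 (adjusted p = 0.161) and Stag2 0.36 (adjusted p = 0.238). At 2 h these 4 were at 0.44, 0.44, 0.34 and 0.32, and at 24 h at 0.26, 0.23, 0.26 and 0.11. With the replicate number as a block, Stag1 and Pds5b were called higher at 6 h, although the labels do not say what a shared number stands for. Of the ring genes, Rad21 was at 0.09, 0.21 and 0.14 and Smc3 at 0.16, 0.18 and 0.03, with intervals that spanned zero. Both depleted libraries lay above both DMSO libraries in 7 of the 10 genes at 2 h, 8 at 6 h and 4 at 24 h, against 18.9%, 22.9% and 23.6% of all genes, and in none did both lie below (20.4%, 24.2% and 24.4%).

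The height of these changes depended on the DMSO libraries. The second DMSO library of TT-seq was higher than the first in all 10 genes. The median log2 change of the 10 was 0.25, 0.32 and 0.13 at 2, 6 and 24 h, with all genes at 0.01, 0.00 and 0.00. It was 0.11, 0.18 and -0.01 without the first DMSO library and was 0.43, 0.52 and 0.29 without the second. Without the second DMSO library Stag1 was called at 6 h, with a log2 change of 0.85. TT-seq changes also moved with the length of the gene across all genes: at 6 h the median log2 change was -0.18 for genes under 20 kb and 0.28 for genes over 200 kb. The 10 genes span 29.5 kb (Rad21) to 361.6 kb (Stag1), and the part of gene length in these values was not tested.

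In steady-state RNA the 3 genes bound by ZFP143 and Rad21 had lower values at all 3 times, by the test against no change. Pds5a and Smc3 did so at 48 and 72 h. None of these genes passed the call. All 3 times were set against the same DMSO libraries. Here a change had to exceed 1.5-fold (glmTreat, adjusted p under 0.01 over 13925 genes). None of the 10 passed at 24, 48 or 72 h, where 5.73%, 18.2% and 25.8% of all genes did (3.41%, 7.71% and 12.0% lower, and 2.32%, 10.5% and 13.7% higher), and DESeq2 called none either, against 3.14%, 10.8% and 16.4%. Against no change, 6, 7 and 7 of the 10 had an adjusted p under 0.05, against 46.9%, 67.0% and 72.7% of all genes, of which 4, 6 and 6 were lower (24.3%, 33.4% and 36.2% of all genes) and 2, 1 and 1 higher (22.7%, 33.6% and 36.5%). The median log2 change of the 10 was -0.09, -0.24 and -0.32, with all genes at 0.02, 0.01 and 0.02. With library size alone it was 0.05, -0.04 and -0.10, with all genes at 0.15, 0.21 and 0.23.

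Smc1a had the lowest values relative to DMSO. Its libraries held 284 and 303 CPM in DMSO, 208 and 202 at 24 h, 187 and 190.0 at 48 h, then 182 and 187 at 72 h. All 6 depleted libraries lay below both DMSO libraries. The log2 change of Smc1a was -0.52 at 24 h (-0.61 to -0.43), -0.64 at 48 h (-0.74 to -0.55) and -0.67 at 72 h (-0.76 to -0.58). Against 1.5-fold the adjusted p was 1, 0.14 and 0.0315, and without the first DMSO library Smc1a was called lower at 72 h, at -0.72.

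Ctcf gave 272 and 300.2 CPM in DMSO, 239 and 226 at 24 h, 200 and 203 at 48 h, then 210 and 207 at 72 h. No depleted library of Ctcf overlapped DMSO. Its log2 change was -0.30, -0.51 and -0.46 (adjusted p against no change 7.92e-06, 3.36e-10 and 1.63e-09). Wapl moved by -0.16, -0.33 and -0.40, with adjusted p against no change of 0.0034, 1.76e-07 and 3.11e-09. None of the 3 bound genes passed the call, although the fitted change of Smc1a was beyond 1.5-fold at 48 and 72 h, while 18.1%, 23.7% and 26.1% of the 2024 tested protein-coding genes with a ZFP143 promoter peak were called lower.

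Lower values were not limited to the bound genes. Rad21, with its nearest ZFP143 peak 113.8 kb away, gave 504 and 535 CPM in DMSO, 442 and 426 at 24 h, 366 and 372 at 48 h, then 375 and 379 at 72 h. As in Ctcf, no depleted Rad21 library overlapped DMSO. The log2 change of Rad21 was -0.26, -0.50 and -0.46 (adjusted p against no change 8.75e-06, 3.19e-11 and 7.62e-11). Pds5a was at -0.08, -0.29 and -0.43 (adjusted p against no change 0.133, 6.14e-07 and 3.65e-10). Smc3 was at -0.06, -0.18 and -0.23 (0.261, 0.000811 and 2.53e-05). Stag1 had higher values at all 3 times, at 0.22, 0.13 and 0.26 (adjusted p against no change 0.000637, 0.0216 and 4.67e-05). Pds5b was at 0.16 at 24 h (0.06 to 0.27, adjusted p against no change 0.0124), with both depleted libraries above DMSO, and at -0.01 and 0.07 later. Stag2 and Nipbl were between -0.09 and 0.10 at all 3 times.

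The 95% intervals were narrow enough to bound these changes: 9, 8 and 9 of the 10 genes had an interval wholly inside a 1.5-fold change at 24, 48 and 72 h, against 57.3%, 44.6% and 38.2% of all genes. Smc1a was outside at all 3 times and Ctcf at 48 h. Both depleted libraries lay below both DMSO libraries in 7, 6 and 6 of the genes (34.6%, 40.2% and 41.8% of all genes) and above in 2, 1 and 2 (36.6%, 41.5% and 43.3%). Scaling by library size alone moved the median of all genes up by 0.13, 0.20 and 0.22, and put Smc3, Stag2 and Pds5a above zero at 24 h, Smc3, Stag2, Nipbl and Pds5b at 48 h and Stag2 at 72 h, while Ctcf, Rad21, Smc1a and Wapl stayed below zero at all 3 times. The cells changed in other ways over the same time. At 24 h none of the 7 pluripotency genes was called, though all 7 were lower with an adjusted p under 0.05 against no change (median log2 change -0.38), with a summed level of 4361 to 4416 CPM against 5368 to 5484 in DMSO. At 48 and at 72 h 2 of them were called lower, with a sum of 3874 to 3979 CPM. Of 7 proliferation genes (Mki67, Top2a, Ccnb1, Ccna2, Cdk1, Mcm2 and Pcna) 1 and 2 were called lower at 48 and 72 h, with a summed level of 2659 to 2706 CPM at 24 h and 1802 to 1809 at 72 h against 2742 to 2840. Of the 5 primitive endoderm genes 3 were tested, of which none was called at 24 h and 3 and 2 were called higher at 48 and 72 h, with a sum of 10.4 to 11.1 CPM at 24 h and 13.3 to 16.6 later against 6.23 to 6.61. Of the 5 RA response genes 2 were tested and both were called higher at 24, 48 and 72 h, with a sum of 5.73 to 13.7 CPM against 1.21 to 1.37. Of the 5 fibroblast genes 2 were tested and 1 was called higher at 48 and at 72 h. At 72 h the other one tested was at -0.996, lower with an adjusted p under 0.05 against no change. The fibroblast genes had a sum of 2.79 to 5.51 CPM against 2.47 to 2.77, with Dcn at 0 throughout. No pluripotency, proliferation or endoderm gene was at 0 in both libraries of a group. The part of these shifts in the values of the 10 genes was not tested.

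**Figure D2:**
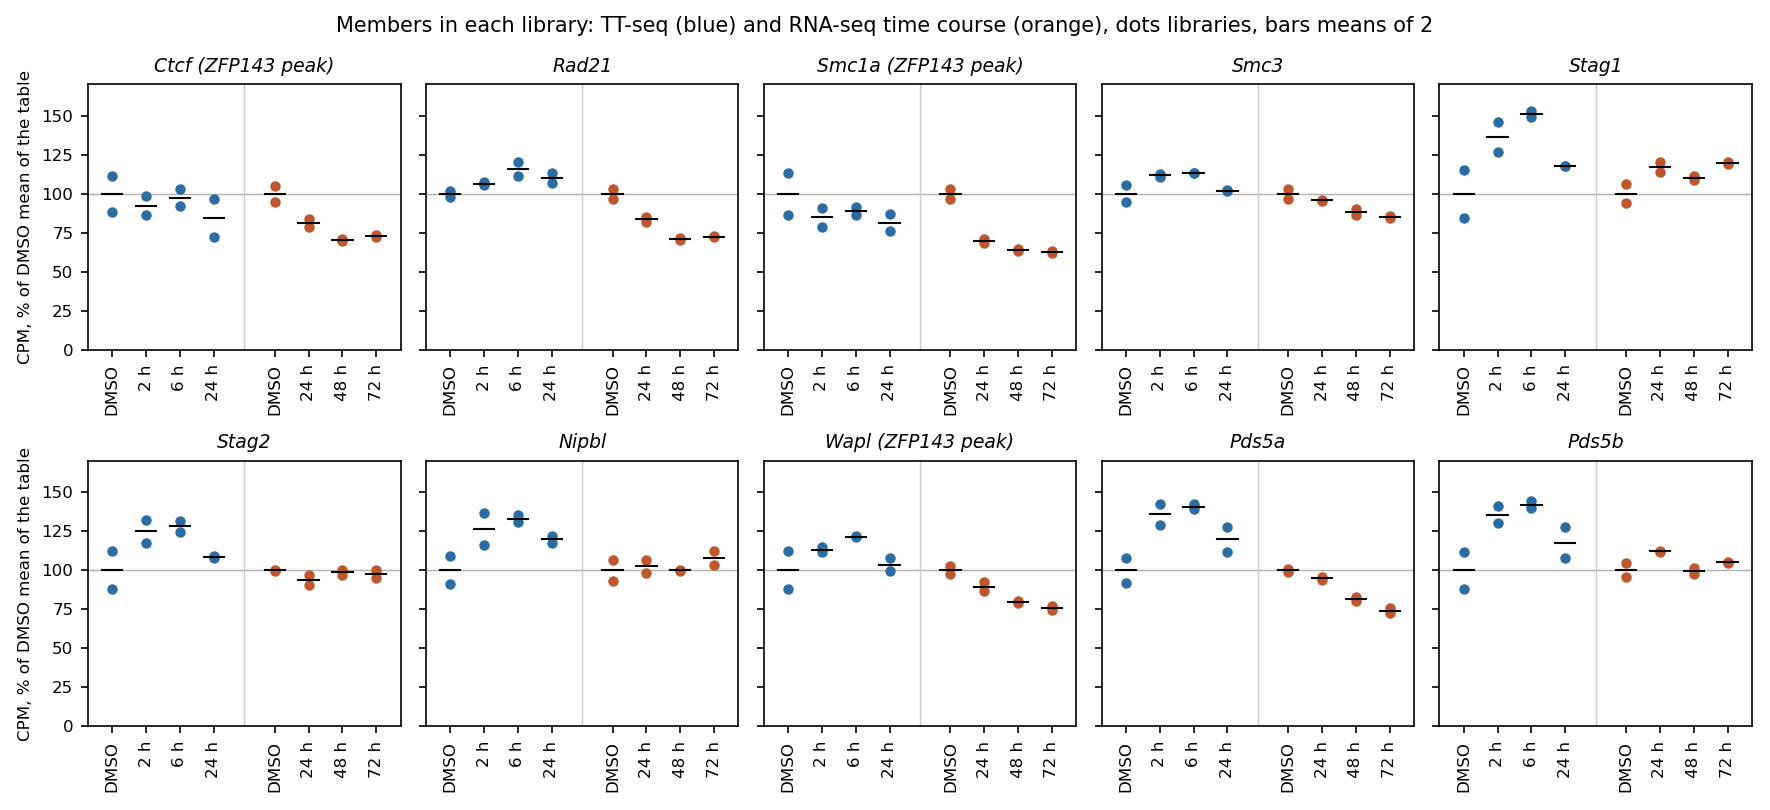
CPM of each gene in each library as a percentage of the mean of the DMSO libraries of its table, for TT-seq (blue) and the RNA-seq time course (orange), with dots for libraries and bars for means of 2. Stag1, Pds5a and Pds5b are above DMSO in TT-seq at 2 and 6 h, and Smc1a, Ctcf and Rad21 are below DMSO in RNA-seq at 24, 48 and 72 h; no gene was called changed in these 6 comparisons.

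The RA experiment measured the 24 h depletion again in separate libraries. None of the 10 genes was called, against 6.40% of the 15915 genes tested (3.66% lower and 2.74% higher), and DESeq2 called none, against 3.88%. Smc1a was at -0.53 (-0.67 to -0.38) and Ctcf at -0.32 (-0.46 to -0.17), close to the -0.52 and -0.30 of the 24 h libraries of the time course. These 2 had an adjusted p under 0.05 against no change (3.99e-06 and 0.000931), against 42.0% of all genes, and 4 had an unadjusted p under 0.05, against 49.9%. Both depleted libraries lay below both DMSO libraries in 6 genes and above in 1, against 31.1% and 40.7% of all genes. Smc3 and Rad21 were both at -0.17 (adjusted p against no change 0.051 and 0.0604). Stag2 was at -0.13, Wapl at -0.10, Pds5a at -0.02, Stag1 at 0.04, Nipbl at 0.05 and Pds5b at 0.10, each with an interval that spanned zero. With library size alone Stag2, Wapl and Pds5a changed sign. Of the marker lists, 1 of the 5 RA response genes (Stra8) was called higher and no other marker was called. The summed level of the pluripotency genes was 5472 to 5498 CPM in depleted cells against 6337 to 6512 in DMSO, and that of the proliferation genes 3495 to 3514 against 3689 to 3774. The primitive endoderm genes summed to 7.88 to 10.2 CPM against 4.3 to 5.15, and the RA response genes to 9.03 to 9.44 against 4.3 to 4.35. The part of these in the values of the 10 genes was not tested. Of the 10 intervals 9 lay inside a 1.5-fold change, against 47.1% of all genes, Smc1a being the exception.

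After 24 h of RA, when depletion had lasted 48 h in place of 24 h, the gap in Smc1a was wider. RA and the longer depletion cannot be told apart here. Without RA the change of Smc1a was -0.52 at 24 h and -0.64 at 48 h of the time course. The DMSO libraries after RA held 276 and 263 CPM of Smc1a and the depleted libraries 124 and 116. Both depleted libraries lay far below both DMSO libraries. Smc1a fell by 1.17 on the log2 scale (-1.32 to -1.02, adjusted p against 1.5-fold 1.28e-07), the only one of the 10 genes called, against 16.5% of all genes called and 7.36% called lower. The call held under each alternative tried, with log2 changes between -1.20 and -0.96.

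Other ring genes were lower too, within 1.5-fold or near it. Smc3, the partner of SMC1A, gave 289 and 282 CPM in DMSO after RA and 213 and 197 in depleted cells after RA. The log2 change of Smc3 was -0.48 (-0.63 to -0.33, adjusted p against no change 5.36e-06). Rad21 held 483 and 481 CPM against 368 and 350.0, a log2 change of -0.43 (-0.57 to -0.28). Ctcf was at -0.37 (-0.52 to -0.22) and Stag2 at -0.23 (-0.39 to -0.08). Stag1 was higher, at 104 and 105 CPM in DMSO after RA and 131 and 129 in depleted cells, a log2 change of 0.31 (0.17 to 0.45, adjusted p against no change 0.000559), and Wapl was at 0.20 (0.06 to 0.33). Nipbl, Pds5a and Pds5b were between -0.13 and -0.08, with intervals that spanned zero. Against no change 7 of the 10 had an adjusted p under 0.05, 5 lower and 2 higher, where 60.5% of all genes did.

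The groups did not overlap in any of the 10 genes after RA: both depleted libraries lay below in 8 and above in 2 (39.4% and 40.1% of all genes). With no TMM factor the median over all genes was 0.21 higher, and Nipbl, Pds5a and Pds5b changed sign. Smc1a was then at -0.96 and still called. Beside these values, 3 of the 7 pluripotency genes were called higher in depleted cells after RA (summed level 1289 to 1511 CPM against 674 to 1001) and 2 of the 7 proliferation genes were called lower (1548 to 1678 CPM against 2569 to 2632). Of the 5 fibroblast genes 3 were tested and 2 called higher, with a sum of 25.9 to 26.2 CPM against 6.52 to 10.3. In the depleted cells Dcn was at 0 in both libraries. Of the 5 RA response genes 3 were called lower, namely Hoxb1 (-2.54), Cyp26a1 (-2.18) and Rarb (-0.95). The other 2 were higher with an adjusted p under 0.05 against no change, up to 0.64, and were not called. The summed level of the list was 1343 to 1389 CPM against 1255 to 1383. Of the 5 primitive endoderm genes Gata6 was called higher (1.18), with a sum of 50.5 to 54.3 CPM against 28.1 to 29.4. The part of these shifts was not tested.

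**Figure D3:**
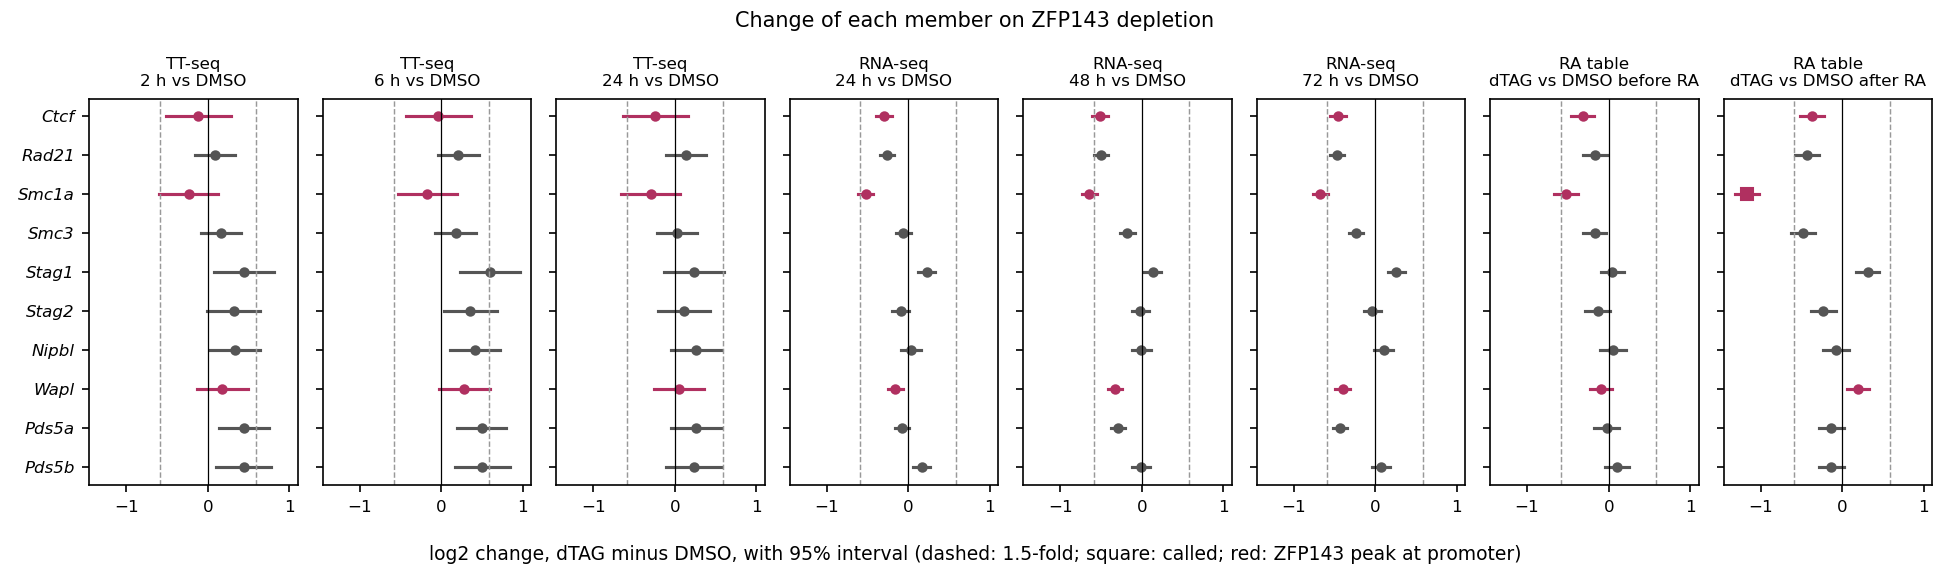
Log2 change of each gene, dTAG minus DMSO, with its 95% interval in the 8 depletion comparisons; dashed lines mark 1.5-fold, red marks a ZFP143 peak at the promoter and the square the single called change. Smc1a is at -1.17 after RA, and scaling by library size alone would move the points up by 0.13 to 0.22 in the 5 RNA-seq comparisons.

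In undepleted cells 1 of the 10 genes, Stag1, was called changed after RA. Stag1 held 192 CPM in both DMSO libraries before RA and 104 and 105 after it. The libraries before and after RA lay far apart. Stag1 fell by 0.88 (-1.02 to -0.74, adjusted p against 1.5-fold 9.27e-05), against 43.9% of all genes called and 18.1% called lower. With scaling by library size alone its change was -0.56 and the call was lost. Ctcf at -0.73 (adjusted p against 1.5-fold 0.0148), Wapl at -0.71 (0.0183) and Pds5a at -0.59 (0.414) came next, and Smc1a and Smc3 were both at -0.44. DESeq2's size factors added Ctcf to the calls. Stag2 (0.32) and Nipbl (0.22) were higher, with adjusted p against no change of 0.000526 and 0.0132. Rad21 was at -0.03 (-0.17 to 0.12) and Pds5b at -0.13 (-0.28 to 0.02), which library size alone turned to 0.29 and 0.18. Median changes of the 10 and of all genes were -0.44 and 0.03.

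In depleted cells RA was followed by a fall of 3 genes, against 43.5% of all genes called and 18.5% called lower. Smc1a went from 256 and 252 CPM to 124 and 116, a fall of 1.08 (adjusted p against 1.5-fold 2.51e-07). Ctcf went from 258 and 243 CPM to 149 and 142, a fall of 0.78 (adjusted p 0.00276). Smc3 went from 337 and 353 CPM to 213 and 197, a fall of 0.75 (adjusted p 0.00733). In each of these 3 genes both libraries after RA lay below both libraries before it. The calls of Ctcf and Smc3 were lost with DESeq2's size factors, with library size alone, with DESeq2 and without the first dTAG library or either dTAG library after RA, with Ctcf between -0.39 and -0.75 and Smc3 between -0.36 and -0.80. Smc3 was also lost without the second dTAG library, at -0.73. The call of Smc1a was lost with library size alone, at -0.69. The other genes were not called: Pds5a was at -0.69, Stag1 at -0.61, Wapl at -0.42, Pds5b at -0.37, Rad21 at -0.29, Nipbl at 0.09 and Stag2 at 0.22. Pds5a stayed uncalled in 8 of 10 alternatives and Stag1 in 9 of 10. Library size alone turned Rad21 and Pds5b to 0.10 and 0.02. This comparison and the one after RA share the depleted libraries after RA. All 7 pluripotency genes were called lower with RA in both treatments, from 6337 to 6512 CPM to 674 to 1001 in DMSO and from 5472 to 5498 CPM to 1289 to 1511 in depleted cells. Proliferation genes were called lower in 3 of 7 in DMSO (3689 to 3774 CPM to 2569 to 2632) and in 6 of 7 in depleted cells (3495 to 3514 CPM to 1548 to 1678). All 5 primitive endoderm genes were called higher in both, with sums from 4.3 to 5.15 CPM to 28.1 to 29.4 in DMSO and from 7.88 to 10.2 CPM to 50.5 to 54.3 in depleted cells. All 5 RA response genes were called higher in both treatments. Of the 3 fibroblast genes tested 2 were called higher in DMSO (3.09 to 4.23 CPM to 6.52 to 10.3, summed over the 5) and 3 in depleted cells (3.89 to 4.1 CPM to 25.9 to 26.2). The part of the marker genes in the changes of the 10 genes was not tested.

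The change from before to after RA differed between depleted and undepleted cells in Smc1a. In depleted cells this change also spans a second day of depletion, which cannot be told apart from RA. In the time course, without RA, Rad21 went from -0.26 at 24 h to -0.50 at 48 h, Smc3 from -0.06 to -0.18, Wapl from -0.16 to -0.33 and Stag1 from 0.22 to 0.13. The interaction (the RA effect of depleted cells less that of DMSO cells) was -0.64 for Smc1a (-0.85 to -0.43, adjusted p = 2.77e-05 by edgeR's quasi-likelihood test), past the threshold of 0.05 with an absolute log2 above 0.5. It was the only one of the 10 called, where 31.7% of all genes were called and 18.0% were called lower. At an adjusted p under 0.05 without the limit on size there were 5 of the 10, against 43.0% of all genes. Rad21 (-0.26, adjusted p = 0.0369) and Smc3 (-0.31, 0.0154) were negative like Smc1a, and Stag1 (0.27, 0.0289) and Wapl (0.30, 0.0131) were positive. Pds5b (-0.24, adjusted p = 0.066), Nipbl (-0.13), Pds5a (-0.11) and Stag2 (-0.10) did not pass. The interval of Ctcf, -0.26 to 0.15, included zero, and its value of -0.05 turned to 0.00 with DESeq2's size factors and with DESeq2 and to 0.02 with library size alone. Beside this, 5 of the 7 proliferation genes had a negative and 6 of the 7 pluripotency genes a positive interaction call, and 2 of the 5 RA response genes, Rarb and Stra8, a negative one. Of the 3 fibroblast genes tested Thy1 was called positive, and the lowest was at -1.27 and not called. The part of these was not tested.

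**Figure D4:**
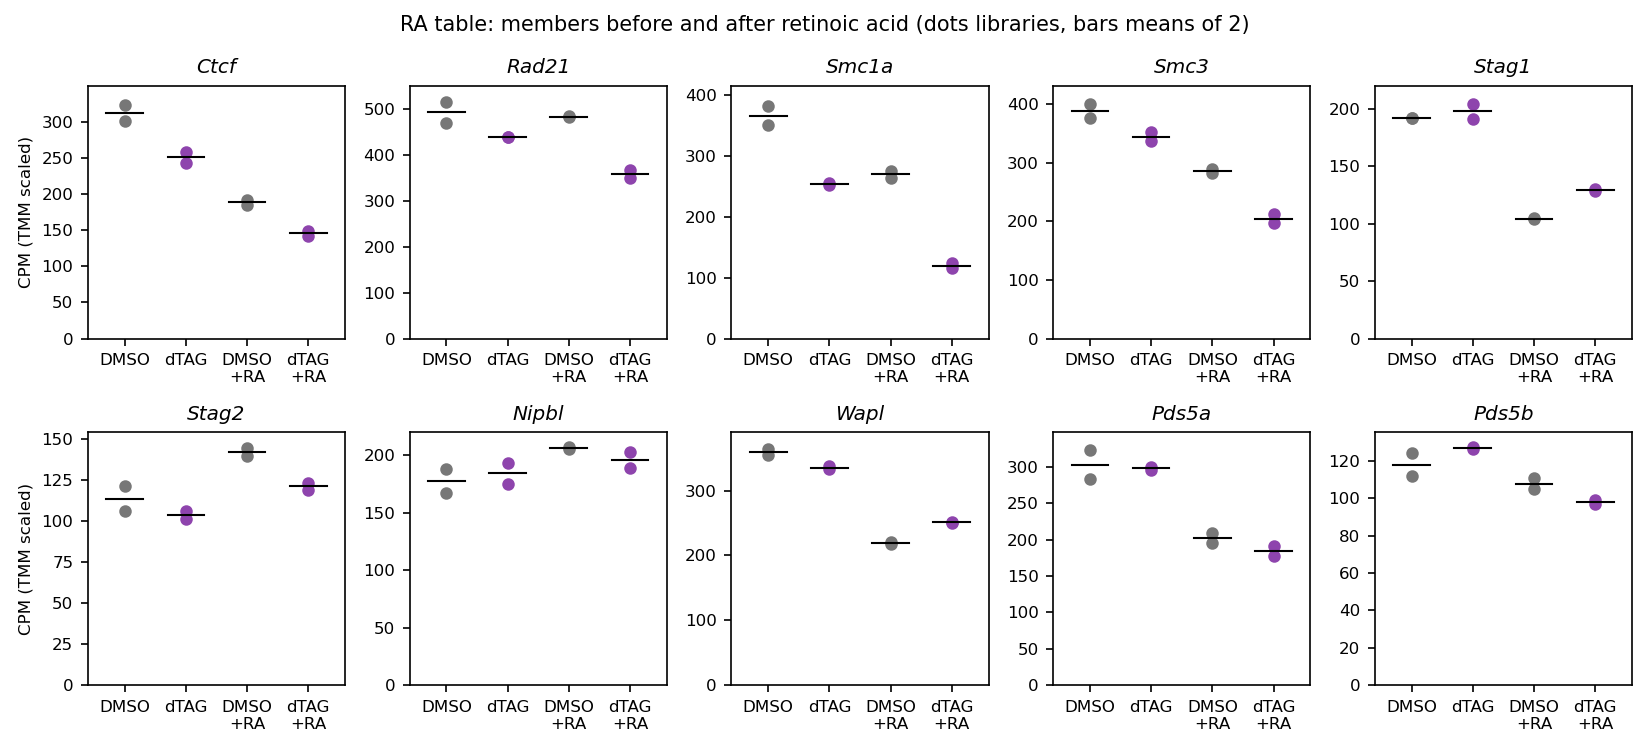
CPM of each gene in the 8 libraries of the RA experiment (dots; bars are means of 2), in DMSO (grey) and dTAG (purple) before and after RA. Smc1a is at 124 and 116 CPM in depleted cells after RA and at 263 CPM or more in DMSO, and Stag1 is at 104 and 105 CPM in DMSO after RA and at 192 before it; the fall of Stag1 is not called with scaling by library size alone.

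The balance of the alternative subunits moved with RA and, less, with depletion. Stag1 made up 54.3% ± 2.2 (SD, n = 2) of the summed CPM per kb of Stag1 and Stag2 in DMSO and 57.3% ± 0.30 in dTAG before RA. After RA the share of Stag1 was 34.0% ± 0.28 in DMSO and 42.9% ± 0.90 in dTAG. The share was thus lower after RA in every library, and after RA higher in both depleted libraries (42.3% and 43.6%) than in both DMSO libraries (33.8% and 34.2%). Over the time course the share of Stag1 was 52.6% ± 2.0 in DMSO and 58.1% ± 0.17, 55.3% ± 0.14 and 57.7% ± 1.0 at 24, 48 and 72 h, above both DMSO libraries (51.1% and 54.0%) at each time. In nascent RNA the share was 66.7% ± 1.1 in DMSO and 68.6% to 70.3% in the depleted groups. These shares are within one library and do not depend on its scaling, and with 2 libraries a group they were not tested. The level of a share depends on the length by which each gene was divided, the gene in TT-seq and merged exons in RNA-seq.

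Pds5a, as a share of Pds5a and Pds5b, was 64.6% ± 1.2 in DMSO and 60.6% ± 0.49, 60.0% ± 1.1 and 56.2% ± 0.69 at 24, 48 and 72 h in the time course, each time below both DMSO libraries (63.7% and 65.5%). It was 56.6% ± 0.58 in DMSO and 54.5% ± 0.12 in dTAG before RA, and 48.8% ± 0.18 and 48.8% ± 0.97 after RA. In nascent RNA it was 77.2% ± 0.92 in DMSO, 77.2% ± 0.20 at 2 h, 77.0% ± 0.11 at 6 h and 77.4% ± 3.7 at 24 h, where the libraries gave 74.8% and 80.0%.

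**Figure D5:**
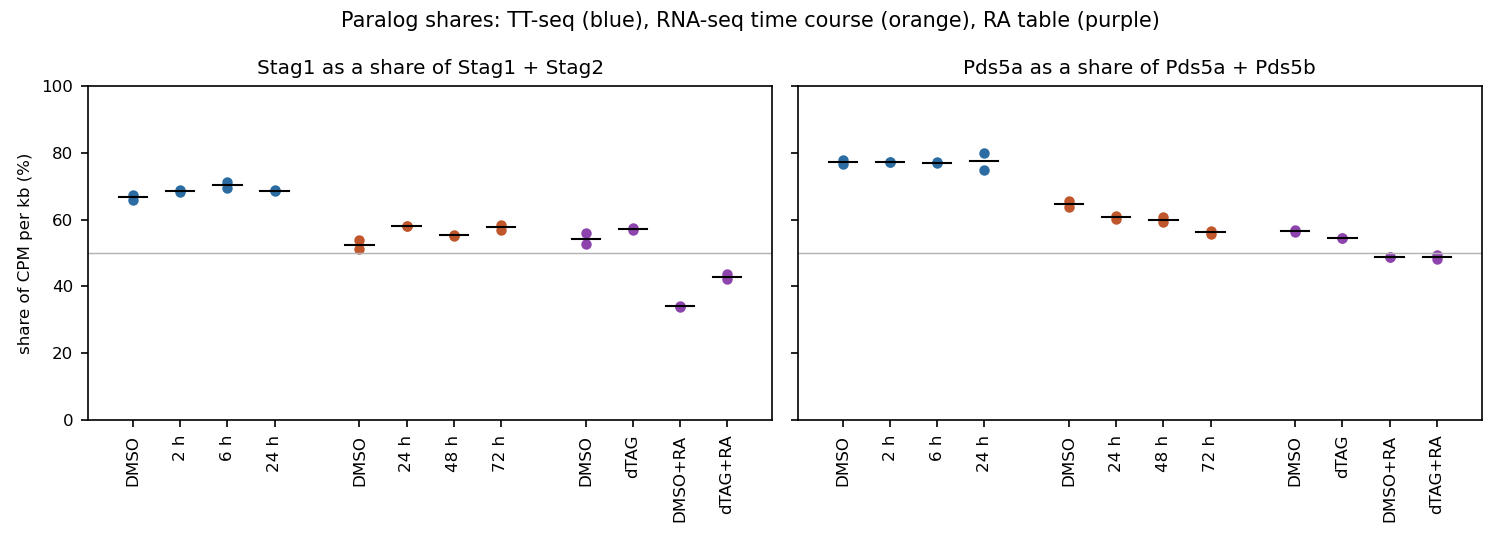
Share of Stag1 in the summed CPM per kb of Stag1 and Stag2, and of Pds5a in that of Pds5a and Pds5b, in percent, for each library (dots; bars are means of 2) of TT-seq (blue), the RNA-seq time course (orange) and the RA experiment (purple). The Stag1 share is 54.3% in DMSO before RA and 34.0% after it, with 42.9% in dTAG after RA.

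Among 32 further genes of the same biology, in 5 lists, Smc4 was called lower in 7 of the 8 depletion comparisons and Hdac8 in 5. In TT-seq 2 of 30 were called lower and 1 higher at 2 and at 6 h, and 4 lower and 1 higher at 24 h, where 2.53%, 3.31% and 6.26% of all genes were called. In the time course 1 of 29 was called lower at each time, where 5.73%, 18.2% and 25.8% of all genes were called. Before RA 2 of 31 were lower and 2 higher, where 6.40% of all genes were called, and after RA 1 was lower, where 16.5% were. Promoter peaks of ZFP143 lay at 4 of 8 loading, acetylation and release genes (Mau2, Esco2, Espl1 and Hdac8), 2 of 8 condensin genes (Smc4 and Ncapd2), 1 of 6 genes of the SMC5/6 complex (Smc5), 2 of 5 other architectural genes (Ldb1 and Patz1) and none of 5 germline paralogs. Smc4, an arm of condensin, which compacts mitotic chromosomes, gave 159 and 204 CPM in DMSO and 86.0 and 79.3 at 2 h of TT-seq. Its groups did not overlap. Smc4 fell by 1.14, 0.97 and 0.92 in TT-seq, by 1.03, 1.03 and 0.95 in the time course and by 1.22 before RA. After RA it was at -0.63, which was not called.

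Hdac8, which removes the acetyl group from SMC3 so that cohesin can be used again, gave 261 and 388 counts in DMSO and 101 and 98 at 2 h of TT-seq. Its counts before RA were 151 and 121 in DMSO and 3 and 9 in dTAG, and after RA 188 and 108 in DMSO and 71 and 67 in dTAG. Hdac8 fell by 2.02, 1.96 and 2.32 in TT-seq, by 4.75 before RA and by 1.26 after RA. In the time course it was not tested because of its low counts, which were 72 and 84 in DMSO and between 4 and 12 in the depleted libraries.

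Espl1, the protease that cuts RAD21 at anaphase, rose by 0.85 and 1.00 at 2 and 6 h of TT-seq. Stag3, a meiotic relative of Stag1, rose by 0.78 at 24 h of TT-seq and by 1.13 before RA, and Smc1b, the meiotic counterpart of Smc1a, rose by 1.68 before RA. Maz and Patz1, zinc finger genes, fell by 0.62 and 0.56 at 24 h of TT-seq. No gene other than Smc4 was called in the time course.

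With RA, 7 of 31 were called lower and 5 higher in DMSO, where 18.1% of all genes were lower and 25.8% higher. In depleted cells the numbers were 14 and 5, where 43.5% of all genes were called and 18.5% were lower. The germline genes Ctcfl (3 and 0 counts before RA, 189 and 91 after it, in DMSO), Rec8 (a log2 rise of 3.07) and Smc1b (4.72) rose in both treatments, with 2.46 and 3.87 for Rec8 and Smc1b in depleted cells, and Stag3 rose in DMSO by 0.99. Vezf1 rose by 1.81 and 1.27. Lower in both were Cdca5 (-1.05 and -1.11), which encodes sororin, a protector of cohesin against WAPL, and the cohesin acetyltransferase gene Esco2 (-0.90 and -0.85), together with Ldb1 (-1.79 in DMSO), Patz1 (-1.55 and -1.39) and Nsmce3 (-0.99 and -1.17). Yy1 (-0.81) and Nsmce2 (-0.91) were called lower in DMSO. In depleted cells Espl1 (-0.85), Sgo1 (-0.99), Maz (-0.90), Nsmce1 (-0.81) and the condensin genes Smc2 (-0.84), Ncapg (-0.79), Ncapg2 (-0.82), Ncaph (-0.77) and Ncaph2 (-0.86) were called lower, and Hdac8 rose by 3.57 from its counts of 3 and 9. Whether the calls differed between treatments is given by the interaction, which was called in 10 of the 31, a share near the 31.7% of all genes.

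Across the 24 libraries, centred within each table, the 10 genes did not move as one. The pairs most alike were Wapl and Pds5a (Pearson r = 0.887), Ctcf and Smc3 (0.883) and Smc1a and Smc3 (0.872), and the least alike were Ctcf and Nipbl (-0.267). The likeness was taken over the 11959 other protein-coding genes tested in all tables. Those most like Ctcf were Eif2a (0.979), Morc3 (0.969) and Cct3 (0.963), and those most like Rad21 were Gm43951 (0.925), Vps54 (0.913) and Arl6ip6 (0.906). These values describe 24 libraries that share groups and depth within a table and are not tests.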

How the data were processed

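All values come from the deposited gene counts of 24 libraries and from 2 deposited peak lists. Per the study's methods, the authors aligned reads to mm10 with STAR and the GENCODE vM25 annotation. TT-seq reads were filtered on mapping quality, cleared of duplicates with Picard, split by strand and counted over whole genes with HTSeq, so intronic reads count. RNA-seq was counted by STAR, and the strand column kept was not given in the sources used here. The deposited counts are raw, with no normalization. The deposited ZFP143 peaks carry a fold enrichment (ratio) over input, a -log10 q-value and a display score by MACS2, and no peak was filtered further here. CTCF peaks are positions only, pooled over treatments.

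Each table was fitted on its own with edgeR 4.0.16 (limma 3.58.1, R 4.3.3), without a replicate block, keeping genes above 10 counts in 4 or more of the 8 libraries, scaled by TMM. TT-seq changes and the interaction were called by the quasi-likelihood test where the adjusted p was below 0.05 and the log2 change beyond 0.5 either way, and RNA-seq changes against a 1.5-fold change at an adjusted p under 0.01 (glmTreat). The thresholds of TT-seq and RNA-seq follow the study, which tested both with DESeq2, and the interaction takes those of TT-seq. P-values were adjusted by Benjamini-Hochberg over all genes tested. DESeq2 1.42.0, other scaling, no count filter, a test against no change, a replicate block and leaving out each library were the alternatives. All 10 genes are named in every comparison, other cohesin and SMC genes where called, and the 3 protein-coding genes most like Ctcf and Rad21. Gene length groups, marker sums and the genes that start at a bound promoter were added after the data were seen. The genes, lists and tests were chosen with earlier results of these data known. The scripts were tested on simulated data.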

Additional observations from a re-analysis of the deposited data

Results flagged for a closer look

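Of the genes named, 15 were noted because the effect of depletion before and after RA differed by the test of the interaction itself. That test was edgeR's quasi-likelihood, with an adjusted p under 0.05 over 15915 genes. Genes of the other lists also had to pass the absolute log2 limit of 0.5, and marker genes were left out. Depletion had lasted 24 h before and 48 h after RA, so RA and the longer depletion cannot be told apart in these differences. Of the 15 genes, 5 belong to the CTCF and cohesin genes, for which no limit on size was set. Smc1a had the largest size among them, with a change of -0.53 before and -1.17 after RA, an interaction of -0.64 (adjusted p = 2.77e-05). Smc3 went from -0.17 to -0.48 (interaction -0.31, adjusted p = 0.0154) and Rad21 from -0.17 to -0.43 (-0.26, 0.0369). Without RA, Rad21 was at -0.26 at 24 h and -0.50 at 48 h of the time course. Stag1 went from 0.04 to 0.31 (0.27, 0.0289) and Wapl from -0.10 to 0.20 (0.30, 0.0131). The sizes of these last 4 were under the limit of 0.5 used for a call, and 43.0% of all genes had an adjusted p under 0.05 in this test.

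Of the other lists, Hdac8 went from -4.75 to -1.26 (interaction 3.49, adjusted p = 5.58e-07), where the dTAG libraries before RA held 3 and 9 counts. Smc4 went from -1.22 to -0.63 (0.58, 3.74e-05), Mau2, the partner of NIPBL, from -0.21 to 0.36 (0.57, 0.000157) and Ldb1 from -0.16 to 0.38 (0.54, 0.000131). Negative interactions were those of Nsmce1 (-0.95, 3.19e-06), Stag3 (-0.86, 2.69e-06), Ncapg (-0.63, 2.69e-05), Rec8 (-0.61, 0.0042), Vezf1 (-0.54, 0.000399) and Pttg1 (-0.51, 0.0195). No explanation of these differences was tested.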

How the results depend on the processing

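Alternatives for single genes were read for the CTCF and cohesin genes alone, and none turned the direction of a called change among them. Of 1100 alternative values for single genes, 1066 stayed on their side of the call, 19 gained a call and 15 lost one, and of 110 alternative counts of called genes 90 stayed within 1.5 times. The calls of Smc1a after RA and in the interaction held under every alternative run. The 6 h TT-seq count of 0 became 1 (Stag1) without the count filter and with DESeq2, and leaving out a library gave 0 to 1 (1 without the second DMSO library). Tested against no change (adjusted p under 0.05 and a log2 change beyond 0.5), the counts were 1, 2 and 1 at 24, 48 and 72 h (Smc1a, with Ctcf at 48 h), 1 before RA, 4 for RA in DMSO and 5 for RA in dTAG, and leaving out a library gave 0 to 1 at 72 h. For RA in DMSO the count of 1 became 2 with DESeq2's size factors and 0 with library size alone, and was 1 to 2 with a library left out. For RA in dTAG the count of 3 became 1 with DESeq2's size factors and with DESeq2, 0 with library size alone, and was 1 to 2 with a library left out. The cause was not tested. With bounds of 0.322 on the log2 scale either way in place of 0.585 (1.5-fold), the intervals inside were 0, 0 and 1 at 2, 6 and 24 h of TT-seq, 5 and 3 at 48 and 72 h of RNA-seq, 2 and 1 for RA in DMSO and dTAG, 2 for the interaction and 3 for depletion after RA. The counts of 3 and 6 promoters with a peak held in each alternative.

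The replicate block was fitted because libraries share numbers. The labels do not say what a number stands for, and each comparison has 2 pairs. Same-numbered libraries deviated together in TT-seq (r of 0.214 to 0.667) and not in the time course (-0.0559 to 0.0575) or the RA experiment (-0.175 to 0.192). With the block Stag1 and Pds5b were called at 6 h, a count of 2, and calls over all genes rose from 423 lower and 30 higher to 658 and 91 at 2 h, from 522 and 69 to 976 and 342 at 6 h and from 760 and 359 to 1232 and 1000 at 24 h. The block changed no other call of the 10 genes.

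Over all genes, omitting the count filter gave 774 lower and 162 higher calls at 2 h, 980 and 338 at 6 h, then 1178 and 1025 at 24 h of TT-seq. DESeq2 gave 335 lower and 102 higher at 24 h (475 and 323 by edgeR), then 729 and 780 at 48 h (1073 and 1456), with 1156 and 1123 at 72 h (1677 and 1912), 474 and 143 before RA (583 and 436) and 765 and 789 after RA (1171 and 1449). The test against no change gave, lower and higher, 1187 and 1591 at 24 h, 2352 and 2944 at 48 h, with 3066 and 3398 at 72 h, 1342 and 2302 before RA and 2966 and 3333 after RA. Leaving out a library gave TT-seq calls of 102 to 290 lower and 10 to 31 higher at 2 h, 109 to 309 and 8 to 38 at 6 h, with 340 to 467 and 98 to 165 at 24 h. Library size alone moved the share of calls that were higher from 40.5% to 56.2%, 57.6% to 74.5% and 53.3% to 71.1% at 24, 48 and 72 h, from 42.8% to 56.4% before RA, 55.3% to 73.2% after RA, 58.8% to 75.1% for RA in DMSO and 57.5% to 78.1% for RA in dTAG. DESeq2 moved it to 23.3% at 24 h and 23.2% before RA. Low counts limit Hdac8, Ctcfl and 5830448L01Rik, which held under 10 counts in some libraries.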

Other observations

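The ZFP143 peak at Wapl also lies at the start of 5830448L01Rik, a long noncoding RNA listed as sharing a bidirectional promoter and read from the opposite strand. It was looked at after its values were seen. Its TT-seq counts were 13 and 28 in DMSO, 62 and 96 at 2 h, 63 and 53 at 6 h, then 45 and 65 at 24 h, so each depleted library held more than either DMSO library. The log2 change of 5830448L01Rik was 1.60 (0.93 to 2.28, adjusted p = 0.0251), 1.39 (0.70 to 2.07, adjusted p = 0.0464) and 1.40 (0.71 to 2.09, adjusted p = 0.0326), called higher at each time, where 0.168%, 0.386% and 2.01% of all genes were called higher. In the RNA-seq time course 5830448L01Rik held 7 to 19 counts per library and was not called. In the RA experiment it was at 0.81 before and -0.10 after RA, neither called, and RA in depleted cells was called lower (-1.74, adjusted p against 1.5-fold 0.00292).

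Ribc1, which starts beside the ZFP143 peak of Smc1a on the opposite strand, was not called in any comparison. In TT-seq Ribc1 was at -0.23, -0.30 and -0.01, and in the time course at -0.20, -0.36 and -0.94, the last with an adjusted p against no change of 0.000603 and against 1.5-fold of 0.0618. Agrp and Gm5914 have a start within 2000 bp of the centre of the Ctcf peak, on the opposite strand. In TT-seq Agrp was at -0.255, -0.303 and -0.201 and Gm5914 at -0.350, -0.370 and -0.226. Neither was called, and neither was tested in RNA-seq.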
